A study of Homo sapiens with 6 samples.

Results

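Transcription of 8 genes of sterol and fatty acid synthesis was followed in SH-SY5Y cells, a human neuroblastoma line, by PRO-seq, in which polymerases already on the genes are let run on in nuclei and the RNA they add to is sequenced. The genes were taken by name, HMGCS1, SQLE, IDI1, INSIG1, SREBF1, SREBF2, SCD and FASN, and all 8 were found among the 67051 gene identifiers of the count tables and passed the filter on low counts, as did 23133 genes in all. There were 3 groups of 2 libraries: cells exposed to 0.1 mM MPP+ over 0.5 h, cells exposed to the same concentration over 24 h, and cells without treatment. MPP+ is a neurotoxin that blocks electron entry at respiratory complex I. The labels name no genetic change and do not tell whether replicates were grown separately. The p-values therefore rest on how far libraries lie apart, a distance that could be technical. In a bulk library, fewer cells transcribing a gene and less transcription per cell cannot be told apart.

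The genes belong to the SREBP pathway. SREBP proteins are made as precursors in the endoplasmic reticulum membrane, where SCAP carries them to the Golgi when sterols are scarce and the INSIG proteins hold them back when sterols are plentiful. In the Golgi the precursors are cut by proteases, and the freed domain enters the nucleus and turns on genes of cholesterol and fatty acid synthesis. SREBP-2, from SREBF2, acts mainly on sterol genes, and SREBP-1, from SREBF1, mainly on fatty acid genes. Cells of the brain make their own cholesterol, since that of the blood hardly enters.

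Libraries held between 5983066 and 11707612 assigned counts, and the floor set by 3 counts was at most 0.501 CPM (counts scaled to a common library size, with TMM factors) in any of them. Of 14 neuroblastoma markers, 13 passed the filter, with summed levels of 3407 to 4506 CPM per library, among them GATA3 at a mean of 1162 CPM and STMN2 at 565 CPM. TH, an enzyme of catecholamine synthesis, was near the floor at a mean of 0.626 CPM, while DBH, another enzyme of that pathway, had 223 CPM. Summed markers of other cell types were lower, at 205 to 242 CPM for the 6 epithelial, 152 to 185 CPM for the 8 fibroblast, 42.1 to 50.6 CPM for the 6 immune and 13.0 to 23.9 CPM for the 6 glial genes. THY1, SOX10 and AQP4 had 0 counts in all 6 libraries, while EPCAM, an epithelial marker, had a mean of 145 CPM.

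Promoter windows of 4 of the genes are shown. HMGCS1 and INSIG1 differed most between libraries of 1 group, and SREBF2 and SCD had untreated libraries apart from those at 24 h. The latter also held for IDI1 and SREBF1, whose windows are not shown as sequences. Each window runs from 250 bases before to 50 bases after a RefSeq start site, on the gene's own strand, build GRCh38.p14. Capitals mark matches, on either strand, to TCACNCCAC, the sterol regulatory element that SREBPs bind, and to CCAAT, the box of the cofactor NF-Y, whose reverse complement is ATTGG.
SREBF2, chr22:41832855-41833154, plus strand: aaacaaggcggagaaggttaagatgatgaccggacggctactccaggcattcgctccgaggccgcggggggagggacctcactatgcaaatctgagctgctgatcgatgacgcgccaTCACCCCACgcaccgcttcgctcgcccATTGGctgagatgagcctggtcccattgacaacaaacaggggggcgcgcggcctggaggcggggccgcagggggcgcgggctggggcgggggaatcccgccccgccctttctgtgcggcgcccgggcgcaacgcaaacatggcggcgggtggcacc
HMGCS1, chr5:43313363-43313662, minus strand: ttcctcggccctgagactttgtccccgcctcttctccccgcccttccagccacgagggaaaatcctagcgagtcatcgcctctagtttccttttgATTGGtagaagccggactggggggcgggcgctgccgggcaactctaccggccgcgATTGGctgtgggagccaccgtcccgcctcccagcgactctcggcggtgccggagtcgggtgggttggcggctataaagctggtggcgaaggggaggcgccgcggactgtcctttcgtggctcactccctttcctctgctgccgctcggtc
INSIG1, chr7:155297628-155297927, plus strand: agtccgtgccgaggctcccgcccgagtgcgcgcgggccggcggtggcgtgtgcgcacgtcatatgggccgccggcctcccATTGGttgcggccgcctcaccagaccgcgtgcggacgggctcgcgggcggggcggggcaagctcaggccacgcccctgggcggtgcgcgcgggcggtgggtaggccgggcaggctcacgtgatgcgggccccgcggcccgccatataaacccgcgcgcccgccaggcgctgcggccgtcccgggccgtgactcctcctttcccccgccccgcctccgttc
SCD, chr10:100346983-100347282, plus strand: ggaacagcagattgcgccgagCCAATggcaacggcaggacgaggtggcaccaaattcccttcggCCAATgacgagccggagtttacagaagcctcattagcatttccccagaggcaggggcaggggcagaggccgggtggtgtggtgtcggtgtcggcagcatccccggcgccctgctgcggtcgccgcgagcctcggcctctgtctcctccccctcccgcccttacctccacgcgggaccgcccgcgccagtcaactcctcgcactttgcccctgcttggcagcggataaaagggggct
The SREBF2 window held 1 match to the sterol regulatory element, which starts 133 bases before the start site, and 1 CCAAT box starting 106 bases before it. The element was found in 1.13% of the 35116 windows of the table, a CCAAT box in 34.6% and the pair in 0.347%. The HMGCS1 window, 1 of 2 of that gene, had 2 CCAAT boxes, the SCD window 2 and the INSIG1 window 1. The other HMGCS1 window had 0. The windows of IDI1 had 3, 2 and 0 CCAAT matches, and each had 0 matches to the sterol regulatory element. The INSIG1 window also held CACGTG, the palindromic E-box, which occurs in 7.26% of windows. GGGCGG, the box of SP1, another cofactor of SREBPs, occurs in 45% of windows and had 6 matches in the INSIG1 window, 3 in SREBF2, 2 in this HMGCS1 window and 2 in SCD. SREBF1 had 1 window, with 3 SP1 boxes and neither a sterol regulatory element nor a CCAAT box in these letters. Of the 8 genes, 6 had windows in the table, and a match describes letters only.

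None of the 8 genes passed in any of the 3 comparisons made with the quasi-likelihood test of edgeR, with 1 term per group, adjustment by Benjamini-Hochberg over all 23133 tested genes and a threshold of 0.05. The share of all genes that passed was 0.0735% at 0.5 h against untreated, 0.0692% at 24 h against untreated and 0% at 24 h against 0.5 h. At an unadjusted p under 0.05 there was 1 member at 0.5 h, SREBF2, lower, where 1.41% of all genes were lower and 2.46% differed in either direction. At 24 h there were 4, where 8.1% of all genes differed: IDI1, higher as 4.01% of genes were, and SREBF1, SREBF2 and SCD, lower as 4.09% were. Between 24 h and 0.5 h there was 1, SCD, lower at 24 h, where 3.62% of genes were lower and 6.42% differed. With 1 library left out at a time, the log2 fold changes at 24 h ran from 0.16 to 0.59 for IDI1 and from -0.47 to -0.14 for SREBF1. Those of SREBF2 ran from -0.33 to -0.19 and those of SCD from -0.32 to -0.28. At 0.5 h SREBF2 had -0.29 to -0.22, and between the times SCD had -0.29 to -0.20. Such fits leave 1 library in a group, so their p-values are not compared here. The 4 at 24 h were 3 with RLE size factors, 3 without the filter, 3 with a filter at a mean of 50 counts and 4 with library size alone. In the same order the 1 at 0.5 h was 1, 0, 1 and 1, and the 1 between the times was 1, 2, 1 and 0. DESeq2 also called 0 members in each comparison, and 0 had an unadjusted p under 0.05. The median log2 fold change of the 8 genes was -0.0053 at 0.5 h and -0.16 at 24 h, each against untreated cells, where all tested genes had 0.0082 and 0.0023. The median at 24 h turned with 1 library: it was 0.11 without untreated replicate 2, and among the treated libraries it was -0.038 when the first 24 h library was dropped and -0.25 when the second was.

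**Figure D1:**
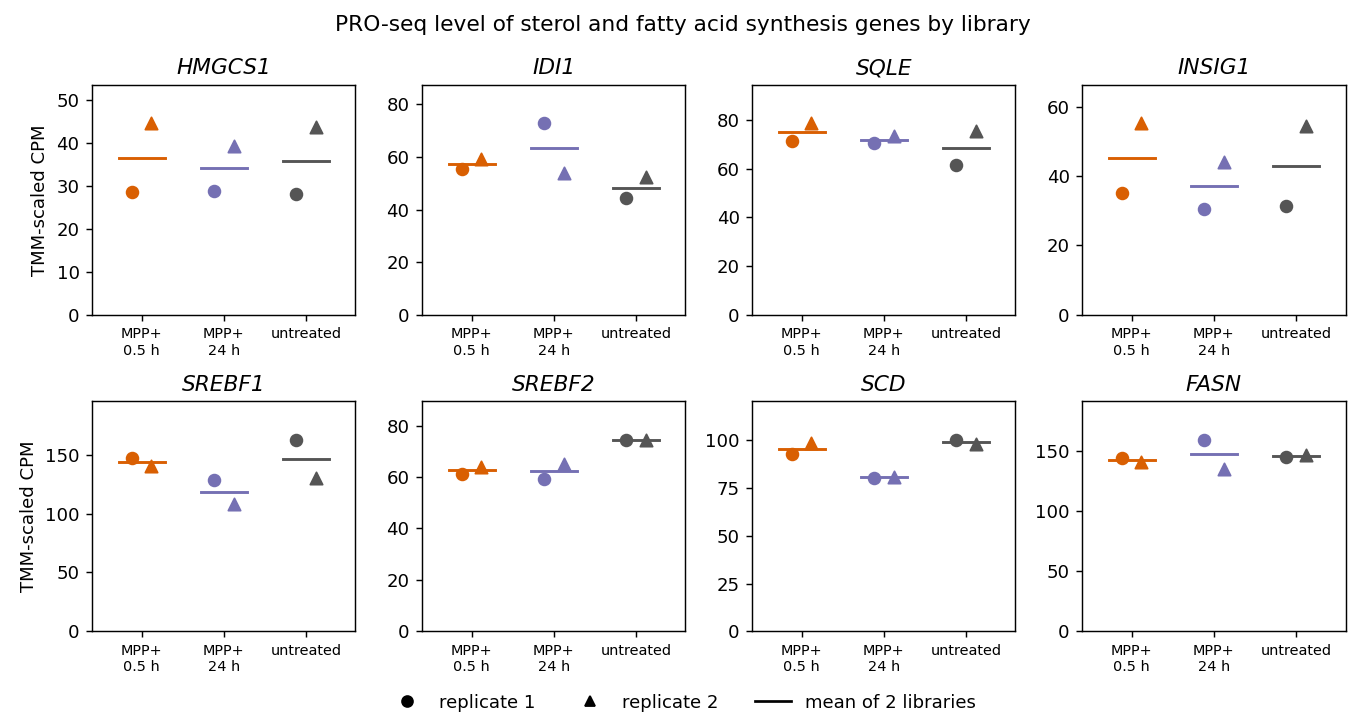
Level of each gene as TMM-scaled CPM (y axis, linear from 0) in the 2 libraries of each group; circles are replicate 1, triangles replicate 2, and bars the mean of 2 libraries. SREBF2 and SCD show untreated libraries above both 24 h libraries, whereas in HMGCS1 and INSIG1 every triangle lies above every circle.

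Among the enzymes of the mevalonate and sterol steps, HMGCS1 codes for the cytosolic synthase that makes HMG-CoA (ENSG00000112972.15, hg38 chromosome 5, 43289395 to 43313512, minus strand). It had 28.6 and 44.6 CPM after 0.5 h and 28.9 and 39.3 CPM after 24 h, against 28.1 and 43.6 CPM in untreated cells. The groups overlapped throughout, with 1 low and 1 high library in each. Its log2 fold change was 0.013 ± 0.26 at 0.5 h and -0.090 ± 0.26 at 24 h (SE, n = 2 per group, edgeR, adjusted p = 0.9997 and 0.959). The 95% interval at 24 h ran from -0.68 to 0.50. Both values took either sign when each library was left out in turn, which left 1 group with only its low or only its high library. They ran from -0.34 to 0.36 at 0.5 h and from -0.37 to 0.26 at 24 h.

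IDI1, the isomerase that makes dimethylallyl diphosphate (ENSG00000067064.12, chromosome 10, 1039152 to 1049170, minus strand), lay above the untreated level at both times. It had 55.4 and 59.3 CPM after 0.5 h and 72.8 and 54.1 CPM after 24 h, against 44.5 and 52.3 CPM in untreated cells. Neither treated group overlapped the untreated one, although 1 library at 24 h was only just above it. As a log2 fold change this was 0.24 ± 0.15 at 0.5 h (adjusted p = 0.9997) and 0.40 ± 0.15 at 24 h (unadjusted p = 0.0275, adjusted p = 0.595 by edgeR). The value at 24 h was the largest of the 8 genes in size, and it was 0.16 without 24 h replicate 1, the library at 72.8 CPM, and 0.59 without 24 h replicate 2. The antisense gene IDI2-AS1 overlaps IDI1 and had 96 to 160 counts per library, so its reads and those of IDI1 could not be told apart if the counting ignored strand, which is not stated.

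SQLE codes for squalene epoxidase, a controlled step of the sterol branch (ENSG00000104549.12, chromosome 8, 124998497 to 125022283, plus strand). Its levels were 71.5 and 78.6 CPM after 0.5 h and 70.5 and 73.2 CPM after 24 h, against 61.6 and 75.4 CPM in untreated cells. The untreated libraries spanned all of the 24 h values and one of those at 0.5 h. The log2 fold changes were 0.13 ± 0.12 at 0.5 h and 0.065 ± 0.12 at 24 h (adjusted p = 0.9997 and 0.928 by edgeR).

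INSIG1, the membrane protein that holds the SREBP and SCAP complex in the endoplasmic reticulum and is itself a target of SREBPs (ENSG00000186480.13, chromosome 7, 155297776 to 155310235, plus strand), had the widest range of the 8 genes. It had 35.1 and 55.2 CPM after 0.5 h and 30.4 and 44.0 CPM after 24 h, against 31.3 and 54.3 CPM in untreated cells. Its highest library was 1.81 times its lowest, and the 3 groups overlapped. In log2 fold change it had 0.059 ± 0.28 at 0.5 h and -0.22 ± 0.29 at 24 h (adjusted p = 0.9997 and 0.895 by edgeR), with a 95% interval from -0.88 to 0.44 at 24 h. The values ran from -0.30 to 0.51 at 0.5 h and from -0.56 to 0.23 at 24 h when libraries were left out singly.

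Of the transcription factor genes, SREBF2 (ENSG00000198911.12, chromosome 22, 41833079 to 41907308, plus strand) had 61.1 and 64.0 CPM after 0.5 h and 59.3 and 65.1 CPM after 24 h, against 74.5 and 74.5 CPM in untreated cells. All 4 treated libraries lay below both untreated ones. The log2 fold change was -0.25 ± 0.10 at 0.5 h (unadjusted p = 0.0298, adjusted p = 0.9997) and -0.26 ± 0.10 at 24 h (unadjusted p = 0.027, adjusted p = 0.595 by edgeR). The comparisons share the untreated libraries, whose 2 values differ by less than counting error. At 24 h against 0.5 h the value was -0.0097 ± 0.10, with a 95% interval from -0.23 to 0.21. SREBF2-AS1, an antisense gene over the start of SREBF2, had 40 to 82 counts per library.

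SREBF1 (ENSG00000072310.17, chromosome 17, 17810399 to 17837002, minus strand) showed no separation at 0.5 h and lower values at 24 h. It had 148 and 139.9 CPM after 0.5 h and 128 and 108 CPM after 24 h, against 163 and 130.1 CPM in untreated cells. Both 24 h libraries lay below both untreated and both 0.5 h libraries, the nearest untreated one by a small margin. The log2 fold change was -0.024 ± 0.13 at 0.5 h (adjusted p = 0.9997) and -0.30 ± 0.13 at 24 h (unadjusted p = 0.04997, barely under 0.05, adjusted p = 0.617 by edgeR). For 24 h against 0.5 h it was -0.28 ± 0.13 (adjusted p = 0.769). The value at 24 h was -0.14 without untreated replicate 1 and -0.47 without untreated replicate 2. RAI1, a gene on the other strand whose span meets the end of SREBF1, had 1781 to 3438 counts per library, so reads there could be split between the pair. The microRNA genes MIR33B, inside SREBF1, and MIR33A, inside SREBF2, had 0 counts in every library. Both lie on the strand of their host gene, and how reads shared by overlapping genes were counted is not stated. The 0 counts therefore do not tell whether these microRNA genes were transcribed.

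Of the fatty acid genes, SCD codes for the stearoyl-CoA desaturase that makes oleate (ENSG00000099194.6, chromosome 10, 100347124 to 100364834, plus strand). It had 92.6 and 98.5 CPM after 0.5 h and 80.3 and 80.8 CPM after 24 h, against 100.2 and 98.0 CPM in untreated cells. Both 24 h libraries were below every other library, and the gap exceeded the spread within each group. The log2 fold change was -0.053 ± 0.093 at 0.5 h (adjusted p = 0.9997), -0.30 ± 0.095 at 24 h (unadjusted p = 0.0112, adjusted p = 0.553 by edgeR) and -0.25 ± 0.094 for 24 h against 0.5 h (unadjusted p = 0.0277, adjusted p = 0.764). It had the smallest unadjusted p of the 8 genes at 24 h, and its value there stayed between -0.32 and -0.28 with any 1 library left out. The processed copy SCDP1 had 5 to 11 counts per library.

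FASN, the multienzyme that makes palmitate (ENSG00000169710.9, chromosome 17, 82078333 to 82098332, minus strand), was the steadiest of the 8. It had 144 and 141 CPM after 0.5 h and 159 and 135 CPM after 24 h, against 145 and 146 CPM in untreated cells. Its highest library was 1.18 times its lowest, and the 24 h libraries lay on either side of the untreated ones. On the log2 scale its fold change was -0.029 ± 0.11 at 0.5 h and 0.018 ± 0.11 at 24 h (adjusted p = 0.9997 and 0.983 by edgeR). The 95% interval at 24 h ran from -0.23 to 0.26.

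**Figure D2:**
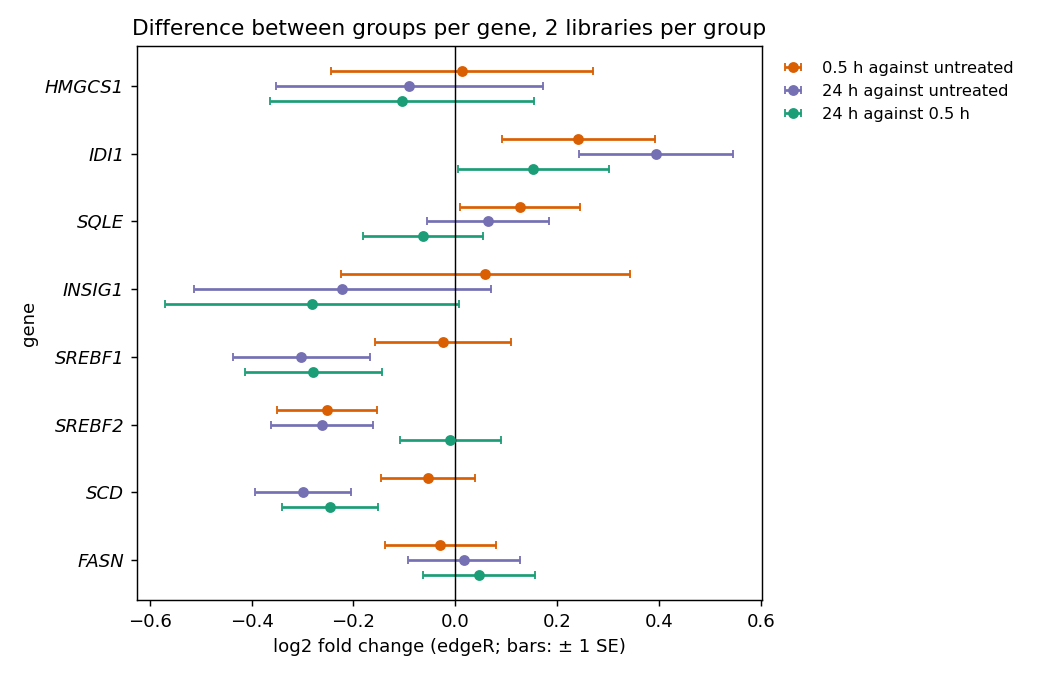
Log2 fold change (x axis) of each gene in 3 comparisons, with bars of 1 SE from the fit on 6 libraries. IDI1 lies right of 0 at both times, SREBF2 lies at -0.25 and -0.26, and SCD and SREBF1 lie at -0.30 at 24 h against untreated cells; 0 of the 8 genes passed the adjusted threshold.

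Counted by overlap, 3 of 8 genes had treated and untreated libraries that did not overlap at 0.5 h, namely IDI1 above and SREBF2 and FASN below. Of all tested genes, 27.4% did so, 12.9% above and 14.4% below. At 24 h there were 4, IDI1 above and SREBF1, SREBF2 and SCD below, where the background was 37.3%, 18.8% above and 18.5% below. Between 24 h and 0.5 h there were 2, SREBF1 and SCD, both lower at 24 h, where 38.4% of all genes did not overlap and 19% were lower. Each of these counts was close to the background share and is not read as a property of these genes.

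In HMGCS1 and INSIG1 every gap within a group was larger than any difference between group means, and the higher library was replicate 2 in each group. These gaps are given as ratios of the level in replicate 2 to that in replicate 1. HMGCS1 had a ratio of replicate 2 to replicate 1 of 1.56 at 0.5 h and 1.36 at 24 h, against 1.55 in untreated cells. INSIG1 had ratios of 1.57 at 0.5 h and 1.45 at 24 h, against 1.73 in untreated cells. SQLE, with smaller gaps in the same direction, had ratios of 1.10 and 1.04 at 0.5 h and 24 h, against 1.22 in untreated cells. For HMGCS1 the group means differed by at most 0.085 on the log2 scale, while the 2 libraries of a group differed by up to 0.64, where counting error alone gives an SD of 0.108 to 0.131 for that gap. INSIG1 showed the same pattern, with 0.27 between group means and up to 0.79 within a group.

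SREBF1 went the other way, with replicate 2 below replicate 1 in all 3 groups, at ratios of 0.948 at 0.5 h and 0.843 at 24 h, against 0.8 in untreated cells. SREBF2, SCD, FASN and IDI1 had no common direction, and for SREBF2, SCD and FASN the median gap within a group was 0.031 to 0.067 on the log2 scale. Over all genes with a mean of at least 5 CPM, the median gap was 0.158 at 0.5 h and 0.151 at 24 h, against 0.186 in untreated cells. Replicate 2 was above replicate 1 in each of the 3 groups in 3 of the 8 genes, where 22.3% of all genes were so. A ratio above 1.25 in each of the 3 groups was found in 2 of the 8 genes, HMGCS1 and INSIG1, where 3.38% of all tested genes had it. Across the 6 libraries the log2 levels of HMGCS1 and INSIG1 had a Pearson r of 0.977, the highest of the 28 pairs of members, and IDI1 and SREBF2 had the lowest at -0.82. These values describe 6 libraries in which every gene shares the same depths, and no test was made.

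Other genes of sterol balance, picked after their values were seen, had gaps of the same kind. MSMO1, the sterol methyl oxidase, had ratios of replicate 2 to replicate 1 of 1.67 at 0.5 h and 1.42 at 24 h, against 2.01 in untreated cells. DHCR7, of the last steps of cholesterol synthesis, had 1.26 and 1.35 at 0.5 h and 24 h, against 1.55 in untreated cells. Of 16 tested other cholesterol synthesis genes, 10 had replicate 2 above replicate 1 in all 3 groups, or 62.5%, against 22.3% of all tested genes. ABCA1, the cholesterol exporter induced by the sterol receptor LXR, lay the other way, at ratios of 0.641 at 0.5 h and 0.784 at 24 h, against 0.697 in untreated cells. MYLIP, a ubiquitin ligase induced by LXR, had 0.649 and 0.671 at 0.5 h and 24 h, against 0.761 in untreated cells. Of the 11 tested genes of the LXR list, 3 were lower and 2 higher in replicate 2 in all 3 groups, where 5023 and 5170 of the 23133 tested genes were so. ABCG1, also of the LXR list, had no common direction, with 0.957 at 0.5 h and 1.14 at 24 h, against 0.852 in untreated cells. SREBF1 is itself known as an LXR target. Whether LXR or the SREBPs have a part in these gaps was not tested.

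Divergent transcripts start beside the promoters of 2 of the 8 genes, on the other strand and outside the gene spans. INSIG1-DT had 12.2 and 13.5 CPM after 0.5 h and 8.88 and 18.3 CPM after 24 h, against 11.5 and 16.7 CPM in untreated cells. SQLE-DT had 5.64 and 11.0 CPM after 0.5 h and 4.26 and 6.82 CPM after 24 h, against 4.91 and 7.51 CPM in untreated cells. Replicate 2 was the higher library in each group for both, as in 22.3% of all tested genes, but the sizes of the gaps did not follow the neighbouring genes. INSIG1-DT was highest in 24 h replicate 2 (18.3 CPM), the replicate 2 library in which INSIG1 was lowest (44.0 CPM). Counts per library were 75 to 142 for INSIG1-DT and 34 to 96 for SQLE-DT. Of the 14 neuroblastoma markers, 8 were lower in replicate 2 in all 3 groups and 3 were higher. Among the 23133 tested genes, 5023 were lower and 5170 were higher in all 3 groups. Their summed level was 4397 and 3779 CPM at 0.5 h and 4229 and 3407 CPM at 24 h, against 4506 and 3792 CPM in untreated cells, replicate 1 given first. Replicate 2 was the shallower library at both times and the deeper one in untreated cells, and the part of depth in the gaps was not tested. The glial markers summed to 17.3 and 21.96 CPM at 0.5 h and 16.5 and 23.9 CPM at 24 h, against 13.0 and 20.2 CPM in untreated cells, with SOX10 and AQP4 at 0. The part of these marker differences in the gap of the sterol genes was not tested.

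**Figure D3:**
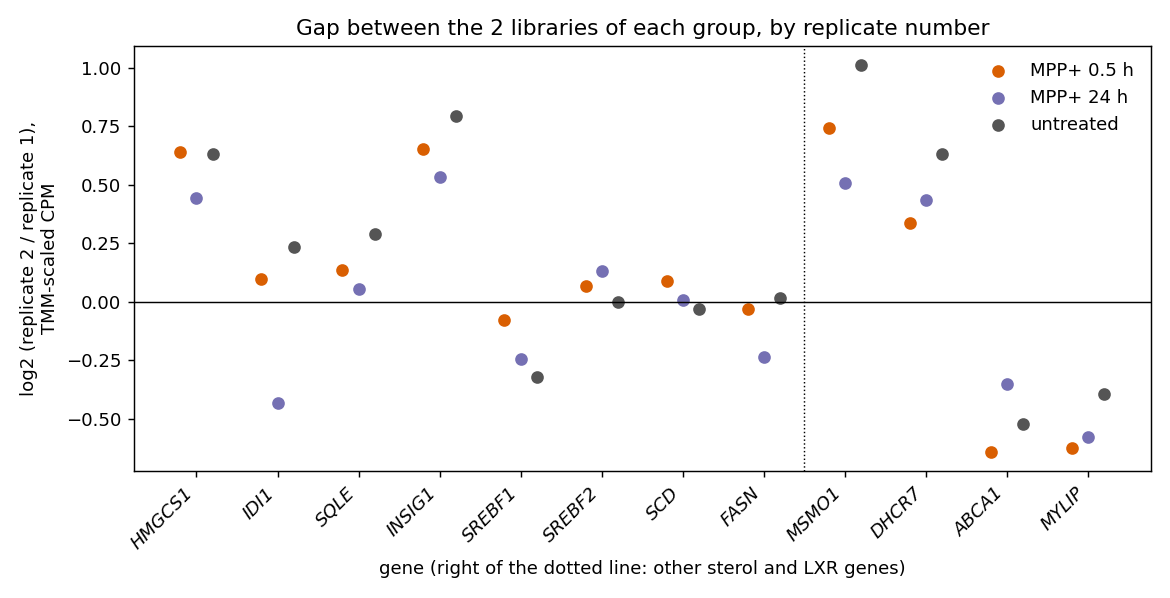
Log2 ratio of replicate 2 to replicate 1 (y axis) in each group, 1 point per group, for the 8 genes and, right of the dotted line, 4 other genes of sterol balance picked after their values were seen. HMGCS1, SQLE, INSIG1, MSMO1 and DHCR7 lie above 0 in all 3 groups, and SREBF1, ABCA1 and MYLIP lie below 0 in all 3.

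Levels were compared between genes per length. Per kilobase of exon in GENCODE 29, the mean level over 6 libraries was 17.1 CPM per kb for SCD (SD 1.68), 17.0 for SREBF1 (SD 2.31), 16.7 for SQLE (SD 1.34), 15.5 for FASN (SD 0.851), 13.0 for IDI1 (SD 2.17), 11.4 for INSIG1 (SD 3.06), 8.79 for SREBF2 (SD 0.869) and 7.56 for HMGCS1 (SD 1.67). In that order, neighbours differed by less than their combined spread (the root of the summed squares of the SDs), except FASN and IDI1. The feature type of the counting is not given in the sources used here, and per kilobase of gene span the order changed, with FASN first at 7.26 CPM per kb and SREBF2 last at 0.895. SREBF2 is the longest of the 8 genes, with a span of 74.23 kb and 7.557 kb of exon.

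The wider pathway was read in 7 lists, and of their 112 tested genes 0 passed over all genes with edgeR at either time. At an unadjusted p under 0.05 there were 1 at 0.5 h and 5 at 24 h, shares below the 2.46% and 8.1% of all tested genes, and DESeq2 called 0 after adjustment, with 0 at 0.5 h and 1 at 24 h before it. The other cholesterol synthesis genes had a median log2 fold change of 0.062 at 0.5 h and -0.076 at 24 h over 16 tested genes. Of these, 5 and 10 lay below 0, where 47.9% and 49.6% of all tested genes did. Both medians turned with single libraries, with -0.11 without untreated replicate 1 and 0.17 without untreated replicate 2 at 0.5 h, and -0.14 and 0.12 without the same libraries at 24 h. At 24 h MVD, the mevalonate decarboxylase, had 0.44 ± 0.25 and FDFT1, squalene synthase, had -0.16 ± 0.11 (adjusted p = 0.71 and 0.762 by edgeR). Without untreated replicate 1 MVD had 0.099 and without untreated replicate 2 it had 0.90, and FDFT1 had -0.070 without 24 h replicate 1 and -0.25 without 24 h replicate 2. At 0.5 h the smallest p of this list was that of SC5D, the lathosterol oxidase, at 0.25 ± 0.13 (adjusted p = 0.9997).

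The other fatty acid synthesis genes had a median of -0.010 at 0.5 h and 0.0061 at 24 h over 23 tested genes. FADS2, the delta-6 desaturase that like SCD puts double bonds into fatty acids, had 158 and 179.6 CPM after 0.5 h and 136 and 144 CPM after 24 h, against 168 and 179.3 CPM in untreated cells. Both 24 h libraries were below every other library, as for SCD, and the log2 fold change at 24 h was -0.31 ± 0.11 (unadjusted p = 0.0182, adjusted p = 0.578 by edgeR). ACSS2, which makes acetyl-CoA from acetate, had 0.25 ± 0.14, and ACACB, the acetyl-CoA carboxylase of the mitochondrial surface, had 0.18 ± 0.11 (adjusted p = 0.703 and 0.725 by edgeR). ACSS2 had 0.084 without 24 h replicate 2 and 0.41 without 24 h replicate 1. OXSM, of mitochondrial fatty acid synthesis, had 0.45 ± 0.21 at 0.5 h (adjusted p = 0.9997).

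Genes that process or restrain SREBPs had a median of 0.0090 at 0.5 h and -0.034 at 24 h over 16 tested genes. SCAP, the escort of SREBPs, had 97.5 and 99.3 CPM after 0.5 h and 94.8 and 96.4 CPM after 24 h, against 113 and 103 CPM in untreated cells, with all 4 treated libraries below both untreated ones. Its log2 fold change was -0.14 ± 0.097 at 0.5 h and -0.18 ± 0.098 at 24 h (adjusted p = 0.9997 and 0.697 by edgeR). MBTPS2, the site-2 protease that frees SREBPs, had -0.23 ± 0.12 at 24 h, and FBXW7, which directs nuclear SREBPs to degradation, had 0.19 ± 0.10 (adjusted p = 0.672 and 0.706 by edgeR).

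Cholesterol uptake and traffic genes had a median of -0.0012 at 0.5 h and 0.044 at 24 h over 15 tested genes. LIPA, the lysosomal acid lipase, had 0.28 ± 0.14 at 0.5 h and 0.31 ± 0.14 at 24 h (adjusted p = 0.9997 at 0.5 h and 0.625 at 24 h by edgeR). Without 1 of the libraries these ran from 0.084 to 0.44 at 0.5 h and from 0.19 to 0.42 at 24 h. The LXR and efflux genes had a median of 0.0013 at 0.5 h and 0.15 at 24 h over 11 tested genes. Of these, 3 lay below 0 at 24 h, where 49.6% of all tested genes did. The median at 24 h was 0.011 without 24 h replicate 1, 0.36 without 24 h replicate 2 and 0.040 without untreated replicate 2. ABCG4, a sterol exporter of neural cells, had 0.83 ± 0.41 at levels of 1.15 to 3.67 CPM, NCEH1, a cholesteryl ester hydrolase, had 0.35 ± 0.19, and CYP27A1, the sterol 27-hydroxylase, had 0.41 ± 0.28 (adjusted p = 0.651, 0.707 and 0.753 by edgeR). Without untreated replicate 1 and without untreated replicate 2 these were 0.39 and 1.6 for ABCG4, 0.12 and 0.62 for NCEH1, and 0.76 and 0.093 for CYP27A1.

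Glycerolipid synthesis genes had a median of -0.049 at 0.5 h and -0.11 at 24 h. Of 16 tested genes, 12 lay below 0 at 24 h, where 49.6% of all tested genes did. AGPAT3, an acyltransferase of phospholipid synthesis, had 109.6 and 111 CPM after 0.5 h and 109.8 and 111 CPM after 24 h, against 135 and 126 CPM in untreated cells. Its treated libraries lay below both untreated ones, with log2 fold changes of -0.24 ± 0.095 and -0.24 ± 0.096 (adjusted p = 0.9997 at 0.5 h and 0.602 at 24 h by edgeR). PEMT, which methylates phosphatidylethanolamine, had -0.30 ± 0.13, and LPIN2, a phosphatidate phosphatase, had -0.22 ± 0.12 at 24 h. Without untreated replicate 1 these were -0.14 for PEMT and -0.11 for LPIN2, and the list's median at 24 h was -0.045 without 24 h replicate 1 and -0.19 without untreated replicate 2. Fatty acid oxidation genes had a median of 0.029 at 0.5 h and 0.037 at 24 h, with 4 of 15 tested genes below 0 at 24 h, beside the same 49.6%. CPT1A, which commits fatty acids to entry into mitochondria, had 0.29 ± 0.12, PPARA, a transcription factor of fatty acid oxidation, had 0.25 ± 0.10, and ETFDH, which passes electrons to ubiquinone, had 0.20 ± 0.12 at 24 h (adjusted p = 0.605, 0.602 and 0.731 by edgeR). CPT1A had 0.15 without 24 h replicate 1, and the list's median at 24 h was -0.0091 without untreated replicate 1 and 0.13 without untreated replicate 2. At 0.5 h HADHB, of the trifunctional protein, had 0.21 ± 0.12.

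**Figure D4:**
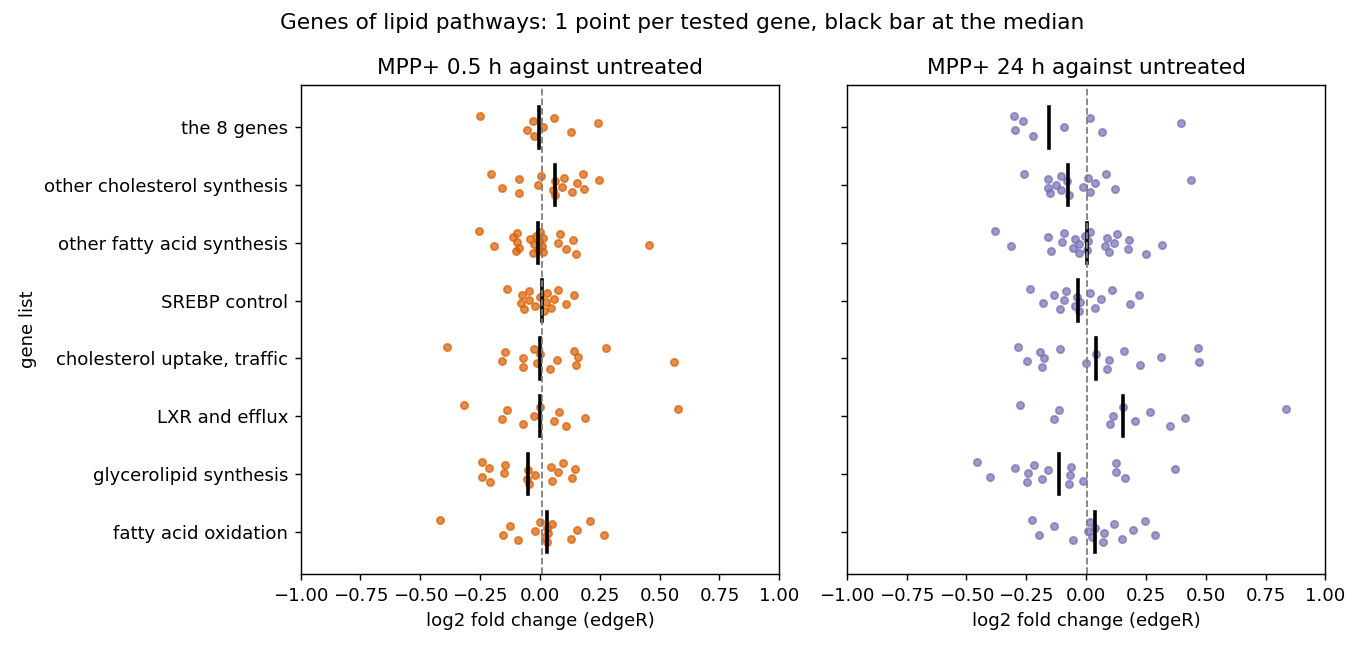
Log2 fold change (x axis) of each tested gene, 1 point per gene, in the 8 genes and 7 lists of lipid pathways at 0.5 h and 24 h against untreated cells; black bars are list medians and the dashed line is the median of all tested genes. The medians lie between -0.16 and 0.15, and 0 genes of the lists passed the adjusted threshold.

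The genes whose levels followed the mean standardised log2 level of the 8 members most closely over the 6 libraries, among 17310 other genes with a mean of at least 5 CPM, were CIB2 (Pearson r = 0.986), ZNF263 (0.98), ZC3H7A (0.974), OTULIN (0.972) and ACAP3 (0.972). With 6 libraries and so many genes, values of this size are a description of these libraries. CIB2 had 16.4 and 19.7 CPM after 0.5 h and 15.5 and 15.1 CPM after 24 h, against 16.02 and 19.7 CPM in untreated cells.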

How the data were processed

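PRO-seq libraries of SH-SY5Y cells were deposited by the authors as raw counts per gene, 1 table per library. Per the submitters' processing notes, cutadapt 1.16.5, Bowtie2 2.4.2, SAMtools 1.13, featureCounts 2.0.1 and the build hg38 were used, and per the file headers trimmed reads were aligned with Bowtie2. The strand setting, feature type, handling of multimapping reads and annotation are not stated there or in the labels, so reads of overlapping genes and copies may be split or shared. Their 2 tables of differential genes do not list any of the 8 genes and were left out.

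Symbols came from a gene name table for 60437 of 67051 identifiers and from GENCODE 29 for 257; 6357 had none and held at most 0.0414% of counts in a library. Counts were filtered with filterByExpr by group, normalized by TMM and modelled in edgeR 4.0.16 (R 4.3.3) by quasi-likelihood over the 6 libraries; each group had 1 coefficient, which left 3 residual degrees of freedom. Tests were two-sided, with Benjamini-Hochberg adjustment over 23133 genes and a threshold of 0.05. Intervals of 95% used the SE and the degrees of freedom of the fit. Depth was 5983066 to 11707612 counts, and floors cover counting error only. The fit was checked on simulated counts. The 2 libraries of a group differed beyond counting error, the chi-square divided by its degrees of freedom being 9.06 at 0.5 h, 4.13 at 24 h and 5.62 in untreated cells. Alternatives were DESeq2 1.42.0, other scalings and filters, the replicate number as a block, and leaving out each library.

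The members and the gene lists were chosen with earlier results of these data known. Named genes were the 8 members, up to 3 genes per list with the smallest p at 24 h and 1 at 0.5 h, the overlapping or copy genes, and the 5 genes of highest likeness; others are said to have been picked after their values were seen. Some genes that this rule names are not reported here. Promoter windows are from RefSeq.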

Additional observations from a re-analysis of the deposited data

How the results depend on the processing

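Leaving out 1 library at a time gave between 9 and 19 called genes at 0.5 h against untreated (17 in the fit of all 6 libraries) and between 8 and 16 at 24 h (16), and 0 at 24 h against 0.5 h. The lowest counts were those without 0.5 h replicate 1 at 0.5 h and without untreated replicate 1 at 24 h, where 24 h replicate 1 left out gave 10. Without a filter on low counts the numbers were 66, 245 and 73, and DESeq2 called 31 at 24 h. The number of members called was 0 in each of these. The median log2 fold change of the 8 genes ran from -0.25 to 0.11 at 24 h against untreated and from -0.19 to 0.026 at 24 h against 0.5 h. Signs turned when single libraries were left out in HMGCS1 (-0.34 to 0.36 at 0.5 h, -0.37 to 0.26 at 24 h, -0.40 to 0.24 between the times) and INSIG1 (-0.30 to 0.51, -0.56 to 0.23, -0.58 to 0.074). They also turned in SQLE (-0.0079 to 0.28, -0.072 to 0.21, -0.13 to 0.0045), in SREBF1 at 0.5 h (-0.18 to 0.14), in FASN at 24 h (-0.11 to 0.13) and between the times (-0.079 to 0.16), and between the times in IDI1 (-0.085 to 0.35) and SREBF2 (-0.074 to 0.057). With library size alone as the scaling, HMGCS1 at 0.5 h was -0.011 and SREBF2 between the times 0.024. With single libraries left out, the medians of all 7 other lists took both signs at 0.5 h, and at 24 h those of 5 did, the LXR list (0.011 to 0.36) and the glycerolipid list (-0.19 to -0.045) being the exceptions. The cause was not tested.

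The labels do not say that a replicate number marks a shared culture or day. Over 17318 genes the difference of replicate 2 and replicate 1 correlated between groups, with Pearson r of 0.491 for 0.5 h and untreated, 0.473 for 24 h and untreated, and 0.507 for 24 h and 0.5 h, as a hint from the data and not the design. With the replicate block, edgeR called 57 genes at 0.5 h, 685 at 24 h and 412 between the times. At 24 h 1 member was then called, SREBF1 at -0.30 (adjusted p = 0.0399), where 2.96% of all genes passed, and FADS2 was called at -0.31 (adjusted p = 0.0213). SCD had adjusted p = 0.0518, IDI1 0.0775 and SREBF2 0.12 in that fit. HMGCS1 had log2 fold changes of 0.025 ± 0.12 at 0.5 h and -0.060 ± 0.12 at 24 h in it. INSIG1 had 0.082 ± 0.11 and -0.18 ± 0.12. At 195 to 480 counts per library, counting error gave an SD of 0.098 to 0.131 for the log2 gap between 2 libraries in HMGCS1 and INSIG1.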
